A study of Mus musculus with 18 samples.

Results

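Mouse induced pluripotent stem cells (iPSCs) made from fibroblasts were set against iPSCs made from granulocyte-macrophage progenitors (GMPs), 1 array each, and 341 of 14682 genes differed between them by 1 log2 or more, a 2-fold difference on the array. These 341 genes were chosen by that size alone. Of them, 275 were higher on the Fibroblast-iPSC array (1.87% of the genes compared) and 66 were lower (0.45%). Each was then placed by the donor cells. A gene was MEF-high where the array of mouse embryonic fibroblasts (MEFs) read at least 1 log2 above the GMP array and at or above its own array median, GMP-high in the reverse case, and neither otherwise. The question the comparison addresses is how far iPSCs still differ by the cell they came from.

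Reprogramming with the factors Oct4, Klf4, Sox2 and Myc (OKSM) is known to replace the expression program of a somatic cell by that of an embryonic stem cell (ESC). Fibroblasts are mesenchymal cells that secrete and crosslink the collagen matrix, whereas GMPs are blood progenitors that give rise to granulocytes and macrophages. iPSC lines can keep traces of donor expression, and mouse iPSCs are known to differ in the imprinted Dlk1-Dio3 region, whose noncoding RNAs are read from the maternal chromosome.

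All cells had the strain label Black6-129X1/SvJ. The fibroblast-derived iPSCs came from 96 hours of induction with AGi (ascorbic acid plus a GSK3 inhibitor) and the GMP-derived iPSCs from 48 hours of it, so donor cell and length of induction cannot be told apart. The MEFs came from the reprogrammable mouse, which carries OKSM under doxycycline (dox) control, and were harvested without dox. The ESCs were wild type, the GMPs carried no further label, and a time course of reprogrammable MEFs in OKSM alone or OKSM plus AGi had 1 array per arm on days 2, 4, 6, 8, 10 and 12. An array of Thy1-positive cells sorted on day 3 of OKSM was not used here beyond its place in the choice of probe sets. The labels give the passage, clone and sex of no sample, and both iPSC samples are called a first biological replicate with no other. With 1 array of each kind there was no replicate error, so the iPSC, donor and ESC arrays were compared by size only, with no test, and precision is limited by that number.

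The labelled cell types were read against their markers. Nanog, the core pluripotency factor, read 12.32 in Fibroblast-iPSC, 12.27 in GMP-iPSC and 12.26 in ESC (log2), against 6.09 in MEF and 6.73 in GMP. Mpo, the granule enzyme myeloperoxidase, read 12.93 in GMP and between 6.18 and 6.23 on the ESC and iPSC arrays. Col1a1, which encodes the main chain of type I collagen, read 12.60 in MEF and 7.02 in GMP. It read 10.70 in Fibroblast-iPSC, 8.75 in GMP-iPSC and 9.52 in ESC, so a fibroblast gene was well above its GMP level on all 3 pluripotent arrays. The labels' growth notes name media only and do not say whether the ESCs and iPSCs were grown on feeder fibroblasts or freed of them before RNA was taken. Array medians lay between 6.32 and 6.47, and over all genes compared the difference between the iPSC arrays had a median of -0.03 with an SD over genes of 0.38. The hybridisation controls, RNAs added at known amounts, differed by -0.13 to 0.27 between the iPSC arrays over 18 probe sets, all short of the 1 log2 used here.

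The members were spread unevenly over the donor classes. Of 1858 MEF-high genes, 191 were higher in Fibroblast-iPSC by 1 log2 or more (10.3%) and 12 were lower (0.646%). Of 1613 GMP-high genes, 14 were higher (0.868%) and 15 lower (0.93%). Of 11211 genes in neither class, 70 were higher (0.624%) and 39 lower (0.348%). MEF-high genes thus made up 69.5% of the members higher in Fibroblast-iPSC and 12.7% of all genes compared. The median difference was 0.15 for MEF-high genes and -0.04 for both GMP-high genes and the rest. That of GMP-high genes turned to 0.02 where the donors had to be 2 log2 apart, with 10 genes higher and 7 lower, and to 0.03 where GMP also had to be 1 log2 above ESC, with 13 higher and 5 lower. Past 2 log2 there were 78 genes higher, of which 62 were MEF-high, and 3 lower.

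**Figure D1:**
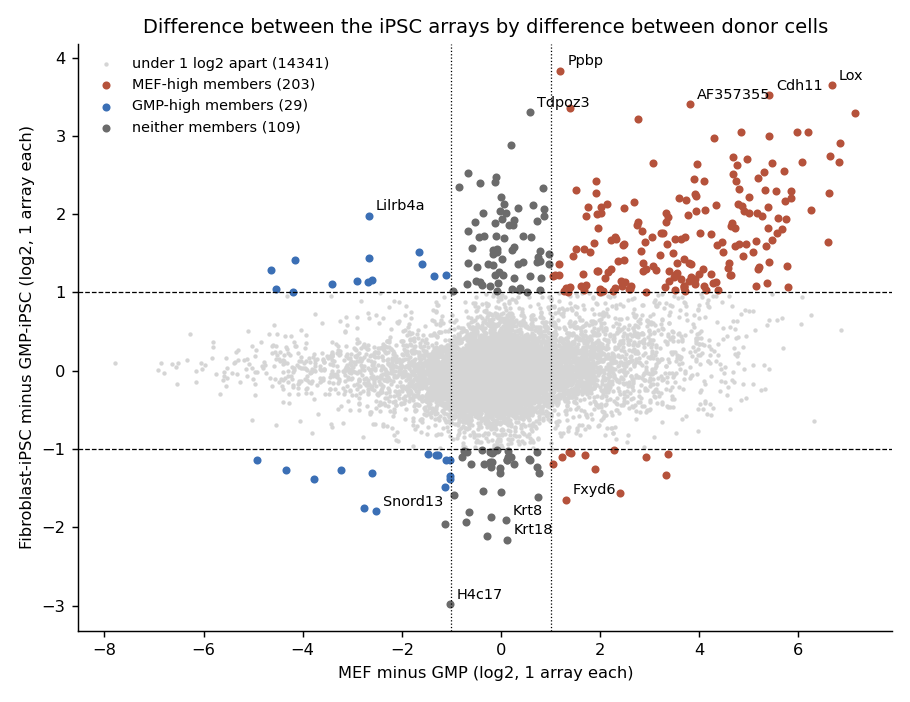
Each point is 1 of the 14682 genes compared, with the difference between the MEF and GMP arrays on the horizontal axis and that between the Fibroblast-iPSC and GMP-iPSC arrays on the vertical axis (both log2, 1 array each). Dashed and dotted lines mark 1 log2. The upper right holds the 191 MEF-high members, and the left, with GMP-high genes, holds 14 members above and 15 below. A gene past the dotted line but below its donor's array median counts as neither, as H4c17 does.

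The share of MEF-high genes that were higher in Fibroblast-iPSC grew with the gap between the donor cells. It was 3.08% of 1006 genes whose MEF value lay 1 to 2 log2 above GMP, 8.01% of 437 at 2 to 3 and 44.4% of 180 at 4 or more, with 45 of 235 genes between these at 3 to 4. The median difference over these bins was 0.07, 0.15, 0.37 and 0.85. On the side of the GMPs every share was 2.99% or less: the share of GMP-high genes lower in Fibroblast-iPSC was 0.774%, 1.01%, 1.33% and 1.49%, and the share higher was 0.387%, 1.69%, 0.667% and 2.99%. Summed over the bins, 14 genes high in GMPs were higher in the iPSCs made from fibroblasts and 15 in those made from GMPs.

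**Figure D2:**
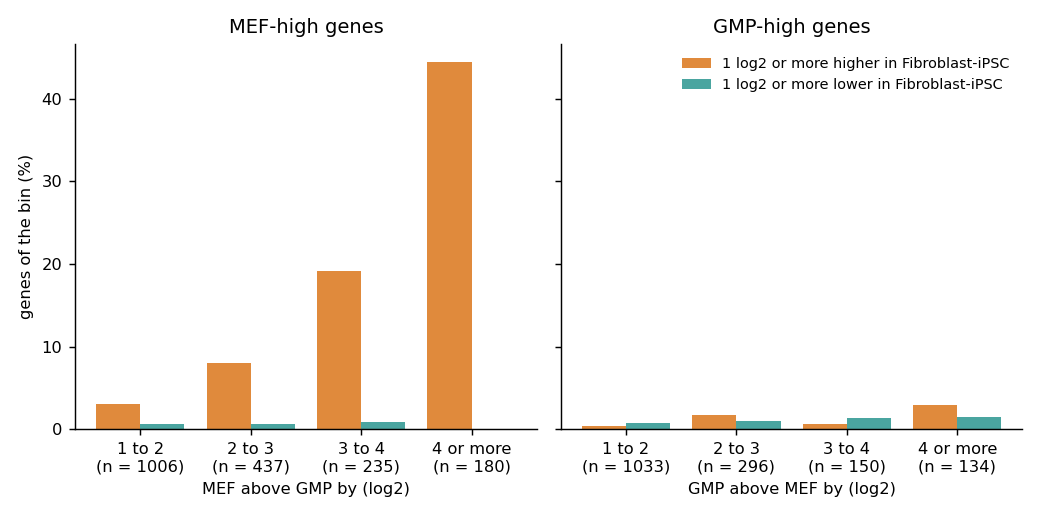
Bars give the percent of genes in each bin of the donor gap (log2, horizontal axis, with the number of genes) that were higher or lower by 1 log2 or more in Fibroblast-iPSC. On the MEF side the share higher goes from 3.08% to 44.4%, and on the GMP side every bar is 2.99% or less.

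The 8 leading MEF-high members higher in Fibroblast-iPSC included the matrix and adhesion genes Lox, Cdh11 and Tnc. The others were Ppbp, AF357355, Tnfrsf23, Grem1 and Tgfb3. Lox, the lysyl oxidase that crosslinks collagen, read 11.50 in Fibroblast-iPSC and 7.85 in GMP-iPSC, with 12.95 in MEF, 6.28 in GMP and 10.26 in ESC. Cdh11, the cadherin of mesenchymal cells, read 10.65 against 7.13, with 12.50 in MEF, 7.09 in GMP and 8.91 in ESC. Tnc, the matrix protein tenascin C, read 11.55 against 8.25, with 12.98, 5.83 and 10.22 in the same 3 arrays. In each of these the order was MEF, Fibroblast-iPSC, ESC and GMP-iPSC, and the gap between the iPSC arrays was 3.65, 3.52 and 3.30. The gene with the largest difference of all, Ppbp, a chemokine known from platelets, was high in both donors (11.86 in MEF, 10.67 in GMP) and read 10.29 in Fibroblast-iPSC, 8.26 in ESC and 6.46 in GMP-iPSC.

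That order was the usual one among the 191 genes. The ESC value lay between the iPSC values for 156 of them, below both for 13 and above both for 22. The median Fibroblast-iPSC value was 1.05 above ESC and the median GMP-iPSC value was -0.71 relative to ESC. These comparisons share the ESC array, and with it any peculiarity of that sample. The Fibroblast-iPSC value was 1 log2 or more from ESC for 107 genes and the GMP-iPSC value for 59, and the GMP-iPSC value was the nearer to ESC for 124. Fibroblast-iPSC stayed below MEF for 186 of the 191, by a median of 1.85. The GMP-iPSC value was below its array median for 56 genes and the Fibroblast-iPSC value for 8. In such bulk samples, fewer cells of a type and less RNA per cell cannot be told apart, so some fibroblasts in a culture and a low level in every iPSC would read alike. Over all 26 mesenchymal surface genes measured, the median level was 10.60 in MEF, 8.78 in Fibroblast-iPSC, 7.87 in ESC, 7.27 in GMP-iPSC and 7.25 in GMP. Over all 21 collagens it was 9.80, 7.84, 7.22, 7.14 and 6.86 in the same order, and the part of fibroblasts in the cultures was not tested.

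**Figure D3:**
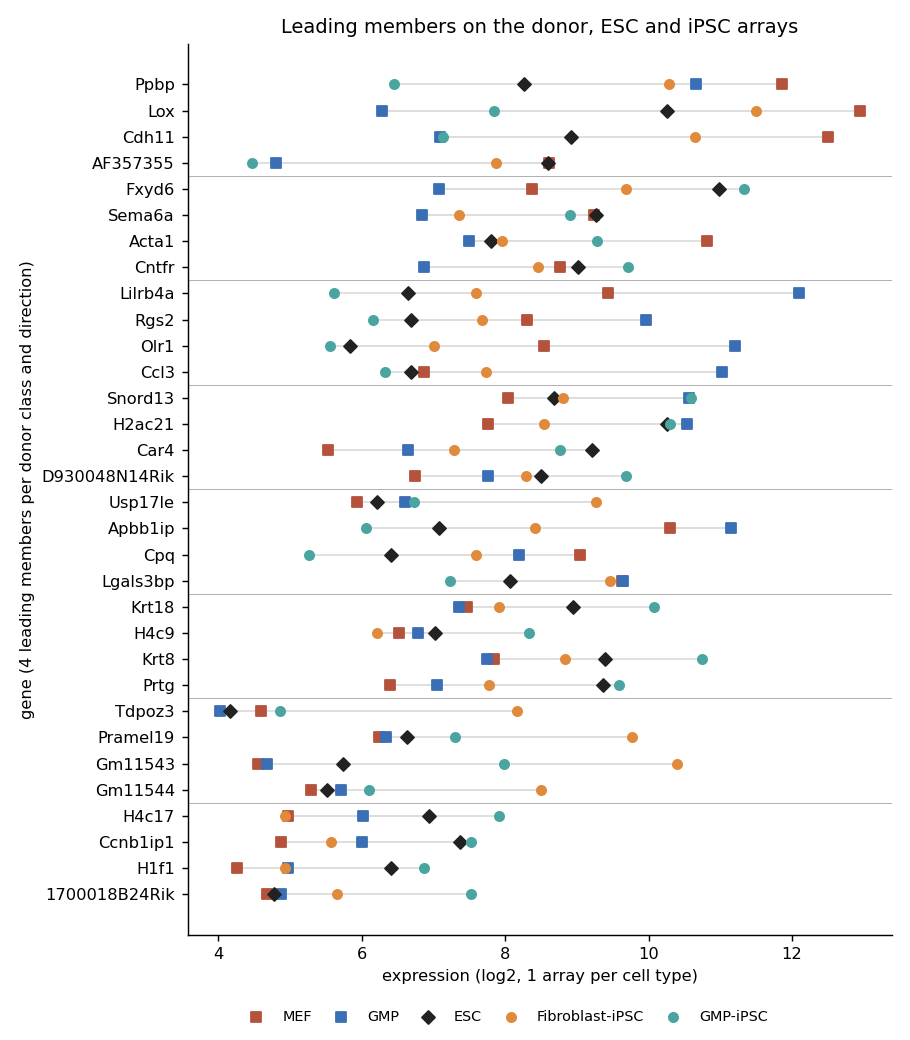
Values on 5 arrays (log2, 1 array per cell type) for the 4 leading members reported of each donor class and direction, in blocks from MEF-high (higher, then lower) through GMP-high and the genes of neither class present in a donor to those low in both. In Lox and Cdh11 the ESC value lies between the iPSC values, and in Tdpoz3 the Fibroblast-iPSC value of 8.16 stands apart from the other 4.

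Among genes of the extracellular matrix, 8 of 20 collagens compared were higher by 1 log2 or more in Fibroblast-iPSC and none was lower, with a median of 0.60. They included both chains of type I collagen (Col1a1 by 1.95, Col1a2 by 1.97), the fibril-associated Col12a1 (9.39 against 6.64) and the type V chains Col5a1 and Col5a2 (1.20 and 1.52). The other probe set of Col5a1 differed by only 0.31. Of 31 matrix glycoproteins and proteoglycans, 16 were higher and none lower, with a median of 1.07. After Tnc came Ccdc80 (9.14 against 6.15), Postn, which encodes periostin (8.94 against 6.02), Fbln2, a fibulin (11.04 against 8.49), and Ltbp2, a binding protein of the elastic fibre (9.22 against 6.71). Bgn, the proteoglycan biglycan, read 12.87 in Fibroblast-iPSC, 10.60 in GMP-iPSC, 12.25 in ESC and 13.45 in MEF, so it was strongly expressed on all of these arrays.

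Of 23 matrix enzymes and their inhibitors, 9 were higher and none lower, with a median of 0.91. Besides Lox these were its relatives Loxl3 (10.54 against 7.49) and Loxl1 (9.85 against 8.32), the prolyl hydroxylase subunit P4ha3 (8.78 against 6.48), the procollagen protease Bmp1 (1.12), the proteases Mmp2 (1.04) and Mmp13 (1.71), and the protease inhibitors Timp2 (11.11 against 8.47) and Timp3 (11.33 against 9.17). Timp3 in Fibroblast-iPSC was within 0.1 log2 of its MEF value of 11.38. Plod1, a lysyl hydroxylase, went the other way at 8.73 against 9.73 and missed the threshold.

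Signals of the TGF-beta family and receptors followed. Of 22 genes of the TGF-beta list, 6 were higher and none lower, with a median of 0.43. Grem1, the secreted BMP antagonist gremlin, read 10.11 in Fibroblast-iPSC, above the 9.74 of MEF itself, with 8.54 in ESC and 6.90 in GMP-iPSC. Tgfb3, a TGF-beta ligand, read 9.69 against 6.64, and Inhba, the subunit of activin A, 10.37 against 7.40. Of 26 mesenchymal surface and adhesion genes, 14 were higher and none lower, with a median of 1.02. Thy1, the fibroblast surface antigen, read 9.41 in Fibroblast-iPSC, 7.44 in GMP-iPSC, 8.44 in ESC, 11.63 in MEF and 8.27 in GMP. The growth factor receptor Pdgfrb (9.34 against 7.35), the collagen receptors Itga11 (8.47 against 6.42) and Ddr2 (9.23 against 7.29), and Cav1, the coat protein of caveolae (8.94 against 7.23), had the same order.

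Among mesenchymal transcription factors, 6 of 25 were higher and none lower, with a median of 0.40. Prrx1, a homeobox factor of limb mesenchyme, read 9.88 against 7.15, with 11.79 in MEF and 8.63 in ESC. Snai2, a factor of epithelial-mesenchymal transition, read 9.52 against 7.47 and Osr1, a factor of mesoderm, 9.38 against 7.33. The contractile and cytoskeletal list had 4 of 24 higher, among them the smooth muscle actin Actg2 (9.38 against 7.36), with a median of 0.44. Over these 7 lists, 63 of 171 genes were higher by 1 log2 or more, none was lower, and 150 had a difference above 0, against 44.4% of all genes. Most genes on each of these lists were MEF-high, a class of which 64.9% were above 0 and 10.3% were higher. The 7 lists held 59 of the 191 MEF-high members, while 117 were on none of the 30 lists. Among the latter, picked here after their values were seen, were Has2, which makes hyaluronan (2.67), the prostaglandin synthase Ptgs2 (2.67), the cytokine receptor subunit Osmr (2.66) and the semaphorin receptor Nrp1 (2.65).

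Hox genes, the homeobox genes that mark position along the body axis, were read after their values were seen. The 34 compared include the transcript Hoxd3os1, which is no homeobox gene. Of the 34, Hoxc8 (8.54 against 6.34, with 10.23 in MEF and 7.16 in ESC) and Hoxc6 (6.80 against 5.78) were higher by 1 log2 or more. None was lower, and the median difference was 0.12. Of all genes compared, 1.87% were higher. Hoxd13, at 9.31 in MEF, and Hoxa6, at 9.40, both differed by 0.41 and were not members.

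Part of the MEF-high members lay in 1 stretch of the genome, the imprinted Dlk1-Dio3 region on chromosome 12. RefSeq places 33 of the genes compared from Dlk1 to Dio3. Of these, 14 were higher in Fibroblast-iPSC by 1 log2 or more, none was lower, 32 had a difference above 0, and the median was 0.81. Of the 14, 8 were microRNA genes. Their mature sequences (RefSeq, GRCm38.p6) are shown because microRNA genes were the most numerous kind among these members; capitals mark the seed, bases 2 to 8, with which a microRNA pairs to its targets.
mmu-miR-493-5p: uUGUACAUgguaggcuuuc
mmu-miR-493-3p: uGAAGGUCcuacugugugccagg
mmu-miR-3070-5p: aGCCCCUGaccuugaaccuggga
mmu-miR-3070-2-3p: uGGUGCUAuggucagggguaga
mmu-miR-329-5p: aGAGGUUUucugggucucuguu
mmu-miR-329-3p: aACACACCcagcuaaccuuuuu
mmu-miR-667-5p: cGGUGCUGguggagcagugagcacg
mmu-miR-667-3p: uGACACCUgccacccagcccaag
mmu-miR-487b-5p: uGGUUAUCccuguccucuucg
mmu-miR-382-5p: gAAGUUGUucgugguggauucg
mmu-miR-382-3p: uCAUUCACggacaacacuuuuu
mmu-miR-453: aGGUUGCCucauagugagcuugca
mmu-miR-377-5p: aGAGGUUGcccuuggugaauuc
mmu-miR-377-3p: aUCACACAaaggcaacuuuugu

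The 14 mature sequences had 14 distinct seeds, so no pair of them formed a seed family. All lie on the plus strand, from miR-493-5p at chr12:109580243-109580261 to miR-377-3p at chr12:109740553-109740574. The arrays read the hairpin or its host transcript, and mature microRNAs were not measured. Genes read through a shared host transcript are not separate measurements, so the 14 members may not be 14 separate results.

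Rian, a maternally expressed long noncoding RNA that hosts small nucleolar RNAs, read 9.56 in Fibroblast-iPSC and 6.86 in GMP-iPSC, with 10.58 in MEF, 5.61 in GMP and 10.20 in ESC. The transcript AF357425 read 10.58 against 7.54, with 11.19 in MEF, 5.0 in GMP and 11.11 in ESC. AF357355 read 7.88 against 4.47, with 8.61, 4.80 and 8.60 in the same arrays. In these 3 transcripts the GMP-iPSC value lay nearer to the GMP donor than to ESC, and the Fibroblast-iPSC value nearer to ESC. Mir453, whose mature form is printed above, read 8.72 against 6.40, with 10.05 in MEF, 4.72 in GMP and 10.12 in ESC. Mir377 read 6.20 against 4.58 and Mir493 6.66 against 4.87, each more than 1 log2 below its ESC value on both iPSC arrays.

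The region thus differed from the matrix genes in its place relative to ESC. All 33 genes were lower in GMP-iPSC than in ESC, with a median of -1.07, and 29 were lower in Fibroblast-iPSC than in ESC, with a median of -0.48. Dlk1, the paternally expressed gene at one end of the region, differed by 0.39 between the iPSC arrays. Meg3, the noncoding RNA upstream of Rian, read 6.56 and 6.55 there and 6.88 in ESC, values near the array medians. Of 43 imprinted genes outside the region, none was higher and 2 were lower by 1 log2 or more, with a median of 0.00. Mest, an imprinted gene of mesoderm, read 9.85 in Fibroblast-iPSC and 10.64 in GMP-iPSC, both far above the 6.31 of ESC.

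**Figure D4:**
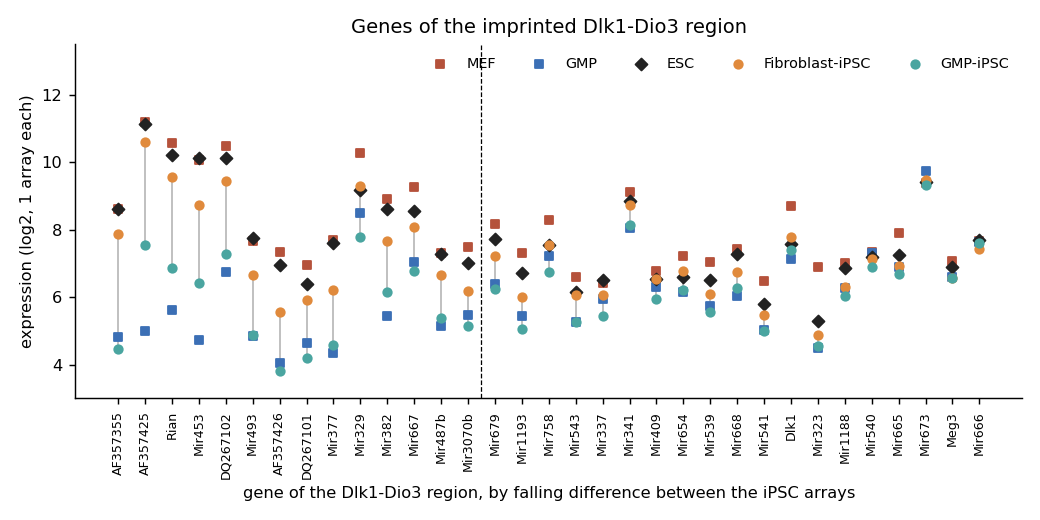
Values of the 33 genes of the Dlk1-Dio3 region on 5 arrays (log2, 1 array each), in falling order of the difference between the iPSC arrays. The grey line joins the iPSC values, and the dashed line divides the 14 members from the rest. Left of it the GMP-iPSC value lies below those of MEF, ESC and Fibroblast-iPSC for every gene.

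The 12 MEF-high genes lower in Fibroblast-iPSC formed no list of their own. Fxyd6, a regulator of the sodium pump, read 9.69 against 11.34 in GMP-iPSC, with 10.98 in ESC and 8.38 in MEF. Sema6a, a semaphorin, read 7.35 against 8.91, with 9.27 in ESC and 9.24 in MEF. For 9 of the 12 the GMP-iPSC value was the nearer to ESC.

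The lists of blood lineage genes were read next. Over all 40 myeloid progenitor genes measured, the median level was 6.67 in Fibroblast-iPSC, 6.44 in GMP-iPSC and 6.58 in ESC, against 11.47 in GMP. Of 39 myeloid progenitor genes, 2 were higher in the iPSCs from fibroblasts (5.13%, against 1.87% of all genes) and none was lower. They were Lyz2, a lysozyme of myeloid cells (7.95 against 6.58, with 11.85 in GMP and 10.27 in MEF), and Cd53, a leukocyte tetraspanin (7.30 against 6.01). The granule protease Elane read 6.46 and 6.45 on the iPSC arrays against 13.60 in GMP, and the leukocyte antigen Ptprc 5.42 and 5.10 against 10.62. Of 18 macrophage markers, 2 were higher in Fibroblast-iPSC (11.1%, against 1.87% of all genes) and none was lower. These were Lilrb4a, an inhibitory receptor of myeloid cells (7.60 against 5.62, with 9.43 in MEF), and the chemokine Ccl3 (7.74 against 6.32). All 4 were high in GMP, while Lyz2 and Lilrb4a also lay well above the array median in MEF. For 11 of the 14 GMP-high genes higher in Fibroblast-iPSC the GMP-iPSC value was the nearer to ESC. Rgs2, a regulator of G-protein signals, was a member by its brightest probe set (7.68 against 6.16) and had a difference of 0.80 as the mean of its probe sets.

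Of the 15 GMP-high genes lower in Fibroblast-iPSC, the leading ones were Snord13 and H2ac21. Snord13, a small nucleolar RNA, read 8.80 against 10.60, with 10.57 in GMP and 8.69 in ESC, so GMP-iPSC lay at the level of its donor and Fibroblast-iPSC at that of ESC. The histone gene H2ac21 read 8.54 against 10.30, with 10.53 in GMP and 10.26 in ESC, while its other probe set differed by only -0.28. Prom1, the stem cell surface protein CD133, read 5.72 against 6.99, with 10.27 in GMP and 7.75 in ESC. Emb, the adhesion protein embigin, read 9.18 against 10.48 and had a difference of -0.67 as the mean of its probe sets.

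Histone genes were then read as a family, which was chosen after their values were seen. Of 22 compared, 5 were lower by 1 log2 or more in Fibroblast-iPSC, 1 was higher and 19 were below 0, with a median of -0.43. H4c17, with the largest difference in that direction among all genes, read 4.93 against 7.92, with 6.95 in ESC. H4c9 read 6.22 against 8.33 and the linker histone H1f1 4.94 against 6.87. H4c17 and H1f1 were below the array median in MEF, GMP and Fibroblast-iPSC. They were compared only through GMP-iPSC, so their high level there was set by the choice. The member higher in Fibroblast-iPSC was H2bc1, a testis histone, at 8.19 against 6.93. Copies of a histone gene are alike in sequence, so probe sets may share signal. The poly-A control RNAs, which are carried through labelling, read lower in Fibroblast-iPSC by a median of -0.21 over 15 probe sets, and their part in this result was not tested.

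Among genes in neither donor class, 45 members higher in Fibroblast-iPSC were present in a donor. Lgals3bp, a secreted galectin ligand, read 9.63 and 9.64 in the donors, 9.46 in Fibroblast-iPSC and 7.24 in GMP-iPSC. The other probe set of Lgals3bp differed by 0.89. Cd44, the hyaluronan receptor, read 8.29 against 6.76 and Vcam1, an adhesion molecule, 8.30 against 6.91, with both donors above 9. The median of the 45 was 9.90 in MEF, 9.63 in GMP, 8.69 in Fibroblast-iPSC, 7.31 in ESC and 7.16 in GMP-iPSC. The ESC value lay between the iPSC values for 28 of the 45, at or below both for 14 and above both for 3, and Fibroblast-iPSC was below MEF for 28.

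Of 26 immediate early genes, 4 were higher by 1 log2 or more in Fibroblast-iPSC and none was lower, with a median of 0.01. The share higher was 15.4%, against 1.87% of all genes and 10.3% of MEF-high genes, the class of 14 of the 26. Fos read 8.69 in Fibroblast-iPSC, 6.77 in GMP-iPSC and 9.83 in ESC, and its relative Fosb 8.57, 6.48 and 9.52. Egr1, a zinc finger factor induced by growth signals, read 9.68, 8.30 and 10.02. For these 3 genes the GMP-iPSC array was the low one and ESC the high one, whereas Nr4a2, a nuclear receptor, read 7.76 in Fibroblast-iPSC, 6.58 in GMP-iPSC and 7.20 in ESC.

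The other large group of members was at or near the lower end of the scale in both donors. Of 663 genes of neither class and below the median in MEF and GMP, 25 were higher and 17 lower, and the 25 had medians of 8.11 in Fibroblast-iPSC, 6.18 in GMP-iPSC, 5.74 in ESC, 5.39 in MEF and 5.36 in GMP. Being below the median in both donors, these genes could be compared only through an iPSC array, and 15 of the 25 only through Fibroblast-iPSC, so their high level there was set by the choice. Likewise, 9 of the 17 could be compared only through GMP-iPSC, so their high level on that array was set by the choice. The 25 were led by genes of the two-cell-like state, in which a few ESCs in a culture express transcripts of the cleavage embryo. Tdpoz3, a member of a cleavage-stage family, read 8.16 in Fibroblast-iPSC and between 4.02 and 4.86 in GMP-iPSC, ESC, MEF and GMP. Zscan4e, of the Zscan4 cluster that marks this state, read 11.10 against 9.02, with 7.57 in ESC and 4.43 in MEF. Zscan4b read 10.41 against 8.40 and Zscan4c 9.01 against 7.12. Both iPSC arrays thus lay above ESC in these Zscan4 genes, with Fibroblast-iPSC the higher.

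Of 34 genes of the two-cell-like list, 19 were compared, 10 were higher by 1 log2 or more and none was lower, with a median of 1.43. Without the filter on low values the median over the list was 0.82. Usp17le, a deubiquitinase of this state, read 9.27 against 6.74, and Gm4340 10.34 against 8.42. Genes of the Zscan4, Tdpoz and Usp17l families are near-identical copies, so their probe sets may read each other and the 10 genes are not 10 separate measurements. Lefty2, an antagonist of nodal signals that was also low in both donors, read 11.02 in Fibroblast-iPSC, 9.08 in GMP-iPSC and 10.46 in ESC.

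Epithelial genes made up part of the members lower in Fibroblast-iPSC. Of 31 compared, 6 were lower by 1 log2 or more and none was higher, 26 were below 0, and the median was -0.42. Krt18, a keratin of simple epithelia, read 7.92 in Fibroblast-iPSC, 10.08 in GMP-iPSC and 8.95 in ESC. Its partner Krt8 read 8.83, 10.74 and 9.39, so for both keratins ESC lay between the iPSC arrays. The tight junction genes Cldn4 (9.14, 10.27 and 10.35) and Cldn6 (8.35, 9.55 and 10.15) and the sorting adaptor Ap1m2 (7.31, 8.35 and 9.22) were highest in ESC and lowest in Fibroblast-iPSC. Cdh1, the epithelial cadherin of ESCs, differed by -0.32. Prtg, which encodes protogenin, a surface protein of the early embryo, read 7.78, 9.59 and 9.37 in the same order of arrays. Phlda2, an imprinted gene of the trophoblast, read 7.98, 9.54 and 10.52, and Apela, a secreted peptide of ESCs, 8.46, 10.05 and 10.78.

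Krt8 and Krt18 are neighbours on chromosome 15 that encode a pair of filament partners. Their promoter windows, from 250 bases before to 50 after the start (RefSeq, GRCm38.p6), are shown because both genes differed in the same direction. Krt8 lies at chr15:102004293-102004592 on the minus strand and Krt18 at chr15:102027966-102028265 on the plus strand; capitals mark overlapping matches to TATAAA on either strand.
Krt8: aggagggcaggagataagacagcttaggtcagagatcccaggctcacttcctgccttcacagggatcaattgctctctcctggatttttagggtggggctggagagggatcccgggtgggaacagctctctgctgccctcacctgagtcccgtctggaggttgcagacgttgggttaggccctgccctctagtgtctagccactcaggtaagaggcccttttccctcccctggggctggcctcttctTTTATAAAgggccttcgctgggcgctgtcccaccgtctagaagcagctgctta
Krt18: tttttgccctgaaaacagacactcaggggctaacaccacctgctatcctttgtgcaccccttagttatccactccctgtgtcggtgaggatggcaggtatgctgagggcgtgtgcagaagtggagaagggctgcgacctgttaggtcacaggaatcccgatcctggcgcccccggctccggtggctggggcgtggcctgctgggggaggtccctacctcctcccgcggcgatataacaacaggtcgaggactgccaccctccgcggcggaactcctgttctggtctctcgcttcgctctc

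The Krt18 window held no match to the 4 motifs searched on both strands. TATAAA, the TATA box, was in 20% of 70 windows of members lower in Fibroblast-iPSC, 17.5% of 154 windows of MEF-high members higher there and 8.03% of 14441 windows of the genes compared. GGGCGG, the SP1 motif, was in 67.1%, 55.8% and 58.7% of these windows. TGANTCA, the AP-1 motif, was in 7.14%, 9.74% and 5.59%, and GGAATG, the TEAD motif, in 10%, 12.3% and 12.4%. A match is a run of letters and shows no binding.

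Other lists held few members or none. None of 38 pluripotency genes compared differed by 1 log2 or more, with a median of 0.05. Sox2 read 12.18 in Fibroblast-iPSC and 12.14 in GMP-iPSC, and Pou5f1, which encodes Oct4, 8.54 and 8.96. The widest was Prdm14, a germ cell and naive state factor, at 9.37 against 8.65. None of 32 replication and mitosis genes was a member, although 30 were below 0, with a median of -0.12. None of 29 germline genes and none of 29 p53 targets and cell cycle inhibitors was a member. Of 18 primed epiblast genes, 3 were higher (16.7%, against 1.87% of all genes) and none lower, among them Fst, the activin antagonist follistatin, at 9.57 against 7.56, while the median was -0.08. Of 30 hypoxia and glycolysis genes, 2 were lower, Ddit4 and Aldoc (6.67%, against 0.45% of all genes), and none was higher.

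The X chromosome differed between the arrays as well. Xist, the noncoding RNA that coats the inactive X, was a member at 9.49 in Fibroblast-iPSC and 7.79 in GMP-iPSC, with 7.16 in ESC, 11.86 in MEF and 12.31 in GMP. Eif2s3y, a gene of the Y chromosome, read 5.93 in Fibroblast-iPSC, 5.03 in GMP-iPSC, 6.18 in ESC, 4.98 in MEF and 5.0 in GMP, under the array medians throughout. Among 353 X-linked genes that were not MEF-high and reached the median on both iPSC arrays, the median difference between the iPSC arrays was 0.14, against -0.09 to -0.03 on the 19 autosomes. The medians against ESC were 0.41 for Fibroblast-iPSC and 0.25 for GMP-iPSC, against -0.08 to -0.01 and -0.02 to 0.04 on the autosomes. These X-linked sets were chosen after Xist was seen among the members. The sex of each sample, and its part in the difference, was not tested.

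The time course gave a test on arrays whose differences had no part in choosing the members, although their mean level entered the choice between probe sets for the 25 members that had several. It asked how AGi changed these genes in fibroblasts under OKSM, with the day as a block (limma, 12 arrays, 5 residual degrees of freedom). Of all genes compared, limma called 18.3% higher and 17.7% lower with AGi at an adjusted p under 0.05. Of the 191 MEF-high members higher in Fibroblast-iPSC, 138 were lower with AGi (72.3%) and 2 were higher, with a median of -0.68. Of all 1858 MEF-high genes 54.5% were lower, with a median of -0.37, and whether the members differed from that class was not tested. The 18 hybridisation controls averaged 0.09 higher with AGi. Leaving out day 8 moved the number of all genes called higher from 2684 to 1590, and leaving out day 6 moved it to 1758. The number of the 191 called lower stayed between 122 and 141. No arm and day was repeated, so these p-values measure how the difference between the arms spread over the days, which may be technical.

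By group, all 8 member collagens, all 16 member matrix glycoproteins and all 4 contractile members were lower with AGi. So were 8 of 9 matrix enzymes, 12 of 14 surface genes, 5 of 6 mesenchymal transcription factors and 4 of 6 members of the TGF-beta list. For Lox the limma difference, AGi minus OKSM, was -1.31 ± 0.20 (log2, SE, n = 6 days, lower on 6 of 6, adjusted p = 0.0027), and for Tnc -1.72 ± 0.17 (6 of 6 days, adjusted p = 9.2e-04). That of Col1a1 was -0.67 ± 0.17 (6 of 6 days, adjusted p = 0.0186), a call that 4 of the 6 fits without a day kept. Grem1 had a difference of 0.04 ± 0.26 (adjusted p = 0.911). The median of the 191 genes lay between 8.84 and 9.57 on the arrays of OKSM plus AGi, and between 9.59 and 10.45 on those of OKSM alone.

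**Figure D5:**
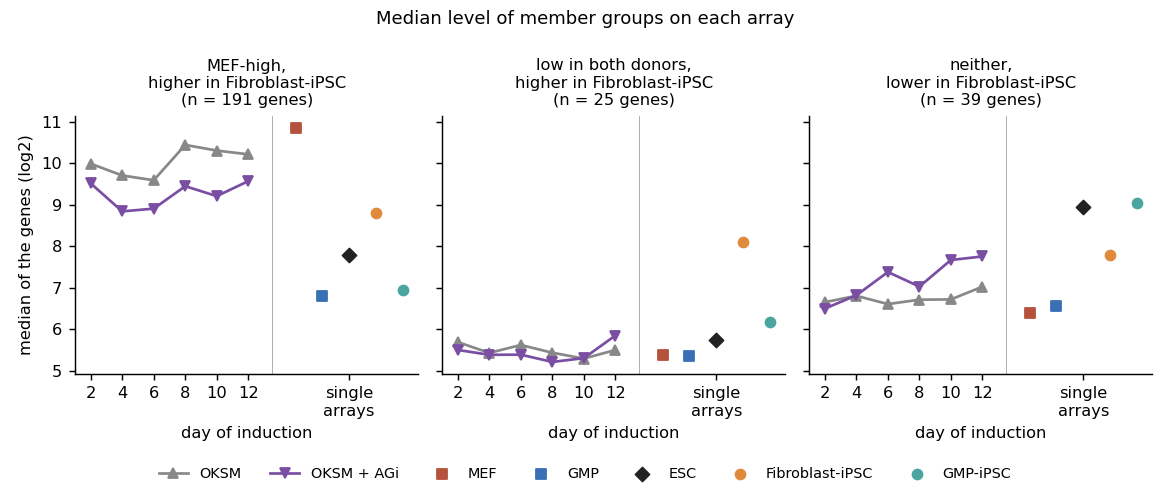
Median level (log2) of 3 groups of members on each array: triangles give the OKSM and OKSM plus AGi arms by day of induction (1 array per arm and day), and the symbols at the right of each panel the single arrays. In the first panel the AGi arm lies below the OKSM arm on every day, and in the middle panel Fibroblast-iPSC at 8.11 lies above every other array.

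Of the 14 members in the Dlk1-Dio3 region, 13 were not called and 1, DQ267102, was higher with AGi (0.37 ± 0.10, adjusted p = 0.0251), a call that 2 of the 6 fits without a day kept. Rian had a difference of 0.15 ± 0.09 (adjusted p = 0.205) and AF357355 of 0.23 ± 0.17 (adjusted p = 0.319). Of the 10 two-cell-like members, 9 were not called and 1 was higher; Tdpoz3 had a difference of 0.06 ± 0.10 (adjusted p = 0.656).

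Of the 39 members of neither class lower in Fibroblast-iPSC, 14 were higher with AGi (35.9%) and 2 lower (5.13%), with a median of 0.33. Of all 11211 genes of neither class 19.6% were higher and 12.1% lower, and of all genes compared 18.3% and 17.7%. Whether the members differed from these shares was not tested. Without day 8 the 14 became 8. Of the 6 epithelial members, 4 were higher: Ap1m2 by 2.10 ± 0.48 (6 of 6 days, adjusted p = 0.0129), Cldn6 by 1.94 ± 0.46 (6 of 6 days, adjusted p = 0.0144), Cldn4 by 1.92 ± 0.46 (5 of 6 days, adjusted p = 0.0143) and Krt8 by 0.56 ± 0.15 (5 of 6 days, adjusted p = 0.021). Of the 6 fits without a day, the call held in 6 for Ap1m2, 5 each for Cldn6 and Cldn4 and 3 for Krt8. Krt18 had a difference of 1.02 ± 0.38 (adjusted p = 0.069). Among the GMP-high members higher in Fibroblast-iPSC, 6 of 14 were lower with AGi (42.9%), against 13.8% of all 1613 GMP-high genes. They included Lilrb4a (limma difference -1.46 ± 0.36, adjusted p = 0.0167) and Cd53 (-0.80 ± 0.18, adjusted p = 0.0124). The 6 became 3 without day 8 and 1 with the day left out of the model.

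The threshold of 1 log2 divided genes with nearly equal values. The members just inside it were Dusp27 (1.0001) and Nbl1 (1.0016) above and Dmc1 (-1.01) and B3gnt5 (-1.01) below. The genes just outside were Lipg (0.9994) and Pramel20 (0.9902) above and Plod1 (-0.99) and Etfbkmt (-0.99) below.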

How the data were processed

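Each array's deposited column holds log2 values of RNA signal per probe set of a mouse gene array. The submitters' processing notes name Affymetrix Expression Console and RMA. Settings of RMA, and the build, are not given in the sources at hand. Of 41345 probe sets on 18 arrays, 190 were controls and 23521 had 1 gene symbol from the platform annotation, updated through the RefSeq table of GRCm38.p6, while 1814 with several symbols and 15820 with none stayed out. Where a gene had several probe sets, that of the highest mean value on the 18 arrays stood for it, which gave 22180 genes. A gene was compared where it reached the array median on at least 1 of the Fibroblast-iPSC, GMP-iPSC, MEF and GMP arrays. Of the members, 25 had several probe sets, and these disagreed in direction for 4 (H2-Q10, Kcnma1, Prelp and Gm4567). Others agreed in direction but had a probe set short of 1 log2, such as Clmp (0.10), Ccn2 (0.24) and Svep1 (0.05).

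The AGi effect was fitted on all 14682 genes with limma 3.58.1 in R 4.3.3 (lmFit, eBayes, Benjamini-Hochberg over all of them) and tested on simulated data. The arrays of the iPSCs, donors and ESCs had no test. Named genes were the 8 with the largest difference per donor class and direction, 4 per list, 12 key genes and the neighbours of the threshold, unless the text says that they were chosen after their values were seen; 1 gene that the rule names is not reported here. The members and the 30 lists were chosen with earlier results of these data known. Alternatives were other filters, scalings, probe set rules, thresholds, donor gaps, variance models and day terms, and leaving out each day.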

Additional observations from a re-analysis of the deposited data

Results flagged for a closer look

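In 4 of the 32 genes examined, 1 of the 6 daily differences between OKSM plus AGi and OKSM stood apart from the other days, and chance marks about 1 in 20 such sets. Lox differed by -0.19 on day 2 and by -1.83 to -1.32 on the other days. H4c17 differed by 1.13 on day 10 and by 0.28 to 0.52 on the others. Gm11543 differed by 2.60 on day 12 and by -0.29 to 0.20 before, and 1700018B24Rik, which was lower in Fibroblast-iPSC, by 2.36 on day 12 and by -0.27 to 0.33 before. Each rests on a single pair of arrays, and the cause was not tested.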

How the results depend on the processing

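No named gene past the threshold changed direction under the scaling and probe set alternatives run. At a threshold of 1.5 log2 the number of members higher in Fibroblast-iPSC was 111 for MEF-high, 2 for GMP-high and 38 for neither, and the number lower was 2, 2 and 12. At 0.8 log2 the GMP-high and neither genes gave 26 and 109 higher, and 22 MEF-high, 25 GMP-high and 104 neither genes were lower. With donors 2 log2 apart, 5 MEF-high and 7 GMP-high genes were lower, 10 GMP-high genes were higher, the MEF-high median was 0.30 and the GMP-high median went from -0.04 to 0.02. With the donor also 1 log2 above ESC, 5 and 5 were lower, 13 GMP-high genes were higher, and these medians were 0.30 and 0.03. Quantile normalization gave 283 higher and 79 lower, of which 267 and 59 were shared. Named genes were counted where they kept both their side of the threshold and a similar size. Of 162, 157 did so with quantile normalization, 162 with centring and 161 with the most variable probe set. With the mean of all probe sets 159 of 161 did so. In the AGi fit, leaving the day out of the model gave 91 of the 191 MEF-high members lower and 1 higher, fewer than the 138 and 2 with it, and among the other members higher in Fibroblast-iPSC 1 GMP-high gene was lower in place of 6 and 14 of neither class in place of 25. Leaving out each day gave 122 to 141 lower and 0 to 2 higher, with the 0 without day 8. Over all genes it gave 1590 to 2833 higher and 1758 to 2653 lower, with 1590 higher without day 8 and 1758 without day 6. Single arrays without replicates, and values near the array medians, limit all comparisons between the iPSCs. No paired analysis was possible because each iPSC, donor and ESC sample has 1 array, whose replicate number names no shared source; the day arrays were blocked by day as given.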
